A study of Drosophila melanogaster with 3 samples.

Results

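The transfer RNA (tRNA) genes of the fruit fly were examined in a chromatin immunoprecipitation sequencing (ChIP-seq) study of Knirps. All genes typed as tRNA by the Ensembl annotation on the major chromosome arms (X, 4 and both arms of the second and the third chromosome, 6 in all) were taken, which gave 290 of 18164 annotated genes other than transposable elements. Within them, the genes with a peak summit within 500 bp of the gene were counted in each deposited list. The chromatin came from whole Drosophila melanogaster embryos of 0 to 14 h, of both sexes pooled, from a transgenic kni-eGFP line that stably carries Knirps with green fluorescent protein (GFP) at its C terminus, and it was precipitated with an anti-GFP antibody. There was 1 group of 3 biological replicates and no second genotype, treatment or stage. All tissues of the embryo contributed, so a summit found in few cells and a weak one found in many cells cannot be told apart. The labels name them biological replicates and do not say whether they were separate collections, so a p-value measures only the spread between these samples.

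tRNA genes are transcribed by RNA polymerase III. Their promoter lies inside the gene: an A box near the start and a B box further on are bound by the factor TFIIIC, which places TFIIIB just upstream, and TFIIIB recruits the polymerase. Most tRNAs are encoded by several identical genes, many of them in clusters. Knirps is a zinc finger protein related to the nuclear receptors, known as a transcriptional repressor encoded by a gap gene that patterns the abdomen of the early embryo.

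The 290 genes carried 22 amino acid classes, counting initiator methionine (iMet) and selenocysteine (SeC) separately, and 45 isoacceptors, which are tRNAs with different anticodons. They held 95 distinct sequences. A sequence occurred once for 52 genes and in several copies, up to 13, for the other 238. Gene length ran from 71 to 186 bp with a median of 73 bp, and 16 genes held an intron. The annotation placed 156 genes outside protein-coding genes, 127 in introns of protein-coding genes and 7 over an exon of one.

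The genes below show what lies at a summit and what does not. Capitals mark the A box letters TNGCNNAG, looked for in the first 20 bases, and the B box letters GTTCNANNC, with N any base. Sequences are from the RefSeq genome assembly of the same build (dm6), read on the strand of the gene. The first 3 belong to 1 cluster of tyrosine genes on the minus strand, chr3R:8668116-8669174, inside introns of CG8036 and p. They shared their first 45 and last 47 bases and differed by a few bases between these. Tyr-GTA-1-7 and Tyr-GTA-1-8 had a summit within 500 bp in the optimal list, and Tyr-GTA-1-6 had not. That list holds the peaks that passed a threshold on agreement between replicates.
tRNA:Tyr-GTA-1-6: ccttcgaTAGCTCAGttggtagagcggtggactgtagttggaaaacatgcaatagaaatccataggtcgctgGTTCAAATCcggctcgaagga
tRNA:Tyr-GTA-1-7: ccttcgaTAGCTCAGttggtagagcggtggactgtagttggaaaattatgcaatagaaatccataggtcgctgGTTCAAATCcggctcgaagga
tRNA:Tyr-GTA-1-8: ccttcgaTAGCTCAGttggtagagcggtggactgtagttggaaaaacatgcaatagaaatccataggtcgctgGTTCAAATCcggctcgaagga

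The next 4 genes show the marked letters of both boxes, or of only 1. Missing letters do not mean a missing box, since the A box letters are in only 140 of 290 tRNA genes (48.3%). Thr-CGT-1-1, chr3R:20890698-20890769, is identical to Thr-CGT-1-2 and both lay near 1 summit. Gly-TCC-1-1, chr3R:7129864-7129935, lies in an intron of CG31248 and lacks the A box letters in its first 20 bases. Ala-AGC-2-8, chr3R:17646683-17646755, lacks the B box letters. Val-CAC-1-1, chr3R:17617761-17617833, also lacks the A box letters in its first 20 bases. It had no optimal summit nearby but had summits inside the gene in 2 replicates.
tRNA:Thr-CGT-1-1: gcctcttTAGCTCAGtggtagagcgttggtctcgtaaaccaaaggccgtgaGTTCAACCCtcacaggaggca
tRNA:Gly-TCC-1-1: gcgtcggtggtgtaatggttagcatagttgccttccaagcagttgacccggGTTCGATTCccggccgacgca
tRNA:Ala-AGC-2-8: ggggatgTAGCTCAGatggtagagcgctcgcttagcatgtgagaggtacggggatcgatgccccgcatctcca
tRNA:Val-CAC-1-1: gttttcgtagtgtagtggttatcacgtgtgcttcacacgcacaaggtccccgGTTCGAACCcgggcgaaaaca

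Knirps summits lay near tRNA genes more often than near positions of the same length elsewhere on the arms. The submitters' optimal list holds the 7129 peaks that passed a threshold on the irreproducible discovery rate (IDR), a measure of how well peak ranks agree between replicates. In it, 29 of 290 tRNA genes had a summit within 500 bp, or 10%, with a 95% Wilson interval of 7.05 to 14%. Of all 73-bp windows on the 6 arms, 4.91% had one, which made the tRNA share 2.04 times the background. No position was left out of these windows, and sequence where reads map poorly was not masked. This interval covers counting error over genes only, and neighbouring genes share summits, so that the 29 genes stood for 24 distinct summits. None of the optimal summits fell inside a tRNA gene. The gene bodies make up only 22026 of the 133880608 bases of the arms, so by position alone few of the 7129 summits would fall there.

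The lists before the IDR step hold 30000 peaks each, many of them background by design. In the list called from the pooled reads, 128 tRNA genes (44.1%) had a summit within 500 bp, against 17.6% of windows. All 29 genes of the optimal list were among them. In the replicate lists the tRNA counts were 118, 116 and 147 genes. These were 40.7% in replicate 1 against 18.2% of windows, 40% in replicate 2 against 17.7%, and 50.7% in replicate 3 against 17.6%. The mean share of tRNA genes was 43.8% ± 5.98 and its ratio to the windows was 2.46 ± 0.365 (SD, n = 3). The tRNA share was above that of the windows in 3 of 3 replicates, and replicate 3 stood above the other two.

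With each replicate list held to its strongest 7129 peaks, as many as the optimal list, fewer genes remained. There were 24 tRNA genes in replicate 1 (8.28% against 4.97% of windows), 29 in replicate 2 (10% against 4.89%) and 43 in replicate 3 (14.8% against 4.84%). The mean ratio was 2.26 ± 0.725 (SD, n = 3). It was 1.66 in replicate 1, 2.04 in replicate 2 and 3.07 in replicate 3, above 1 in each.

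**Figure D1:**
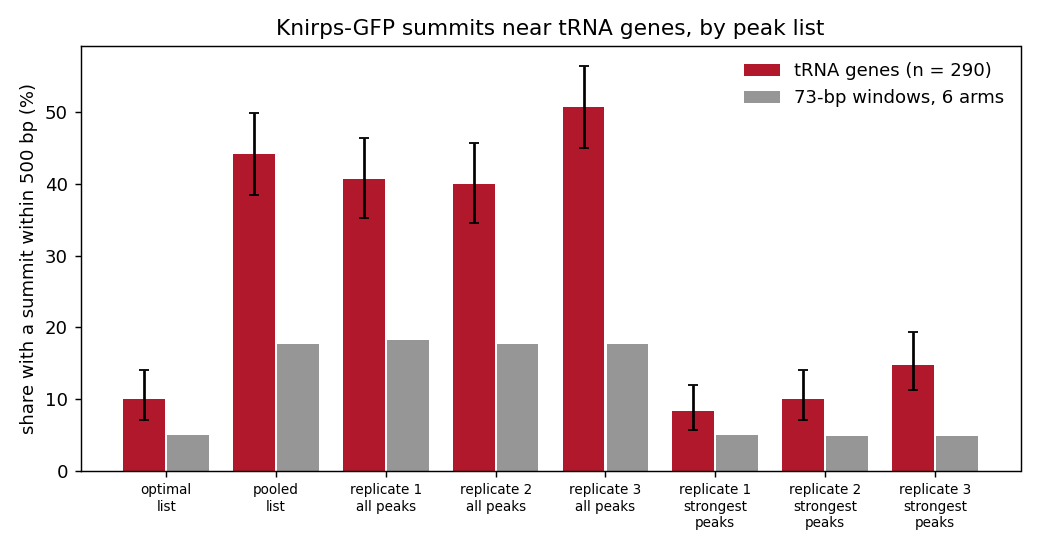
Share of the 290 tRNA genes (red) and of 73-bp windows on the 6 arms (grey) with a summit within 500 bp, in percent, for each deposited list and for the strongest 7129 peaks of each replicate. Error bars are 95% Wilson intervals for counting error over genes; the tRNA share is above the window share in all 8 lists, 10% against 4.91% in the optimal list.

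Most of the optimal genes also had a summit nearby in every replicate list, but the optimal list was itself made from these lists. Any summit within 500 bp counted, also a weak one, such as that of rank 18891 at Gly-TCC-1-1 in replicate 1. Of the 29 optimal genes, 26 had a summit within 500 bp in the optimal list and in all 3 replicate lists. The exceptions were Leu-AAG-1-3, whose nearest summit in replicate 2 lay at 501 bp, Tyr-GTA-1-7 (653 bp in replicate 3) and Leu-CAG-1-5 (681 bp in replicate 1). Among the strongest peaks, 14 of the 29 were found in all 3 replicates, 11 in 2 and 4 in 1. Over all 290 genes, 71 were near a summit in all 3 replicate lists, 53 in 2, 62 in 1 and 104 in none. No share of windows or of other genes stands beside these counts, so they only describe the tRNA genes. Of the 71 genes, 45 were not in the optimal list. These 45 held 6 of 22 leucine, 5 of 17 alanine, 5 of 26 arginine, 5 of 19 lysine and 5 of 17 proline genes among others. They held none of the 10 asparagine, 8 phenylalanine, 8 tryptophan, 6 methionine, 6 iMet and 5 histidine genes, nor the 1 selenocysteine gene. Optimal summits that recurred within 100 bp among the strongest peaks of both other replicates reached 21, 18 and 16 tRNA genes without replicates 1, 2 and 3.

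One alanine gene stood far above the rest in signal, the value that the authors' lists give each peak, whose scale is not given in the sources used here. Ala-TGC-2-1, chr2R:17392215-17392286 on the plus strand, had the highest signal at any tRNA gene. Its summit lay 272 bp downstream, with a signal of 1833 and rank 23 of 7129 in the optimal list, where signals ran from 188 to 5038 with a median of 292. The same place held ranks 25, 24 and 23 in the 3 replicate lists, so the replicates placed it almost alike. A second optimal summit with a signal of 532 lay in the same deposited interval. The nearest protein-coding start site was that of CG10939, 2307 bp from the gene.

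The next summit served a pair of genes. Trp-CCA-2-2 and Gly-GCC-1-9 on 2R lay 284 and 453 bp from a summit with a signal of 634 and rank 627. Its ranks were 490, 649 and 1023 in replicates 1, 2 and 3. This summit stood 3 bp from the start site of the protein-coding gene CG30122, so the pair cannot be told apart from that promoter by position.

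The tyrosine cluster printed above held 2 optimal summits. Tyr-GTA-1-8 had one 197 bp upstream with a signal of 529.6 (rank 988), at ranks 3809, 2218 and 261 in replicates 1, 2 and 3, a wide spread with replicate 3 far ahead. A weaker one, with a signal of 260.1 and rank 4311, lay 55 bp downstream of Tyr-GTA-1-8 and 321 bp upstream of Tyr-GTA-1-7. Of the replicates, only replicate 2 had a summit within 100 bp of this weaker one, at rank 5050. For Tyr-GTA-1-6 the nearest optimal summit was 818 bp away, and its nearest summits in replicates 1, 2 and 3 were 707, 524 and 1150 bp away. The genes that share all but a few bases thus sat on both sides of the limit. The stronger summit was 247 bp from the start site of CG8036.

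Genes for glutamate, isoleucine and serine followed, all on 2R. Glu-TTC-1-5 had a signal of 469 (rank 1325; 2131, 1727 and 931 in replicates 1, 2 and 3). Ile-AAT-1-9 had one of 444 (rank 1490), 480 bp upstream. The summit ranked 1526, 1414 and 1670 in replicates 1, 2 and 3, close together. In replicate 1 it lay 518 bp from the gene, just past the limit, and the strongest peak within the limit there ranked 11716. Both serine genes with the anticodon TGA, Ser-TGA-1-1 and Ser-TGA-2-1, lay 356 and 125 bp from 1 summit with a signal of 416 (rank 1717), and each was among the strongest peaks of all 3 replicates.

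Leu-AAG-1-3 had a signal of 392 (rank 1947). Gly-GCC-1-3 on 2L had one of 391 (rank 1962), with ranks 2216, 1743 and 2731 in the 3 replicates. Phe-GAA-1-2 on X had one of 343 (rank 2556) 166 bp downstream. That summit was 67 bp from the start site of RpL17, which encodes a protein of the large ribosomal subunit. It ranked 1808 and 1897 in replicates 1 and 3, and replicate 2 had no summit within 100 bp of it. Trp-CCA-2-3 had a signal of 274 (rank 3938), 484 bp away and 34 bp from the start site of CG30389. Of these 4 genes, 2 therefore had their summit closer to a protein-coding start site than to the tRNA gene.

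The summits at tRNA genes were not concentrated at the top of the list. The 24 optimal summits had a median signal of 265, against 292 for all 7129, and 4 of them ranked in the first 1000. In the list from pooled reads, 118 peaks lay within 500 bp of a tRNA gene, and 20.3% of these were among the strongest 7129, against 23.8% of all peaks. Of the 24 optimal summits, 6 (25%) were within 500 bp of a protein-coding start site, against 37% of all optimal summits. The 24 were picked for lying near tRNA genes, of which 33 of 290 lie that close to a start site. The 2 shares are therefore not matched for position.

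**Figure D2:**
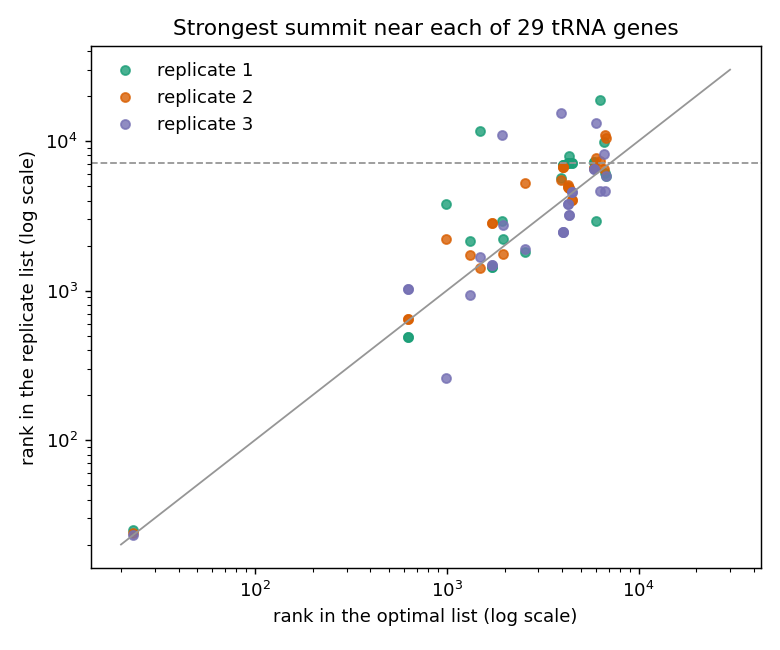
Rank of the strongest summit within 500 bp of each of the 29 tRNA genes in the optimal list (horizontal axis) and in each replicate list (vertical axis, 1 colour per replicate), both on log scales with 1 as the highest signal. Genes with no summit within 500 bp in a replicate have no point for it; the solid line marks equal ranks and the dashed line rank 7129. Ala-TGC-2-1 sits alone at ranks 23 to 25, and 3 points, 1 per replicate, are missing.

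Summits surrounded the genes on both sides. For the 29 optimal genes, the nearest summit lay 34 to 496 bp away with a median of 233 bp, upstream of 17 genes and downstream of 12. With all replicate peaks, the density of summits from 1 to 200 bp upstream was 2.57 ± 0.307 times the average of the arms, and beyond that, up to 500 bp upstream, 2.67 ± 0.14 times (SD, n = 3). Downstream it was 1.9 ± 0.78 times from 1 to 200 bp and 2.11 ± 0.185 times beyond that, up to 500 bp. Between 1000 and 2000 bp it was still 1.43 ± 0.163 times the average upstream and 1.7 ± 0.0936 times downstream, so the raised density was broader than the 500 bp limit.

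Inside the genes the replicates disagreed. The density in the gene body was 1.01 and 1.22 times the average in replicates 1 and 2 and 3.85 times in replicate 3, from 5, 6 and 19 summits. In all, 27 genes had a summit inside in at least 1 replicate, 3 of them in 2 replicates and none in all 3, and 16 had one in replicate 3 alone. The 3 genes were Leu-CAA-2-1, Arg-TCG-4-1 and Val-CAC-1-1. At Val-CAC-1-1 the strongest peak within 500 bp ranked 15825 in replicate 2 and 4538 in replicate 3, while the nearest one in replicate 1 was 4118 bp away.

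**Figure D3:**
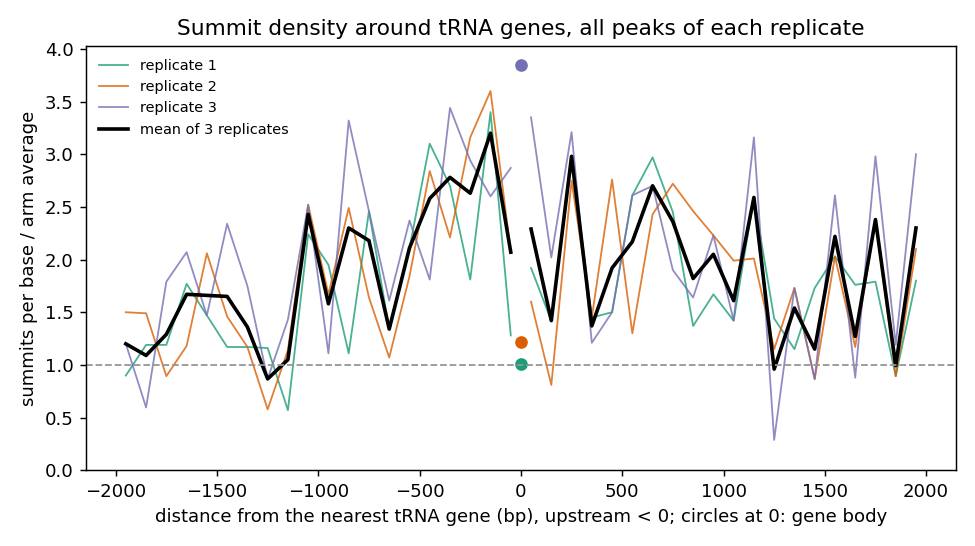
Density of replicate summits in 100-bp bins by distance from the nearest tRNA gene (negative upstream, positive downstream, in bp), divided by the average density over the 6 arms (dashed line at 1). Coloured lines are the 3 replicates, the black line is their mean, and circles at 0 give the gene body: 1.01, 1.22 and 3.85 in replicates 1, 2 and 3. Densities stay above the average on both sides of the genes within 500 bp in the mean of the 3 replicates.

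Far from protein-coding promoters, too, tRNA genes were near summits more often than windows were. Classes were formed by the distance from the gene to the nearest protein-coding start site, and windows were classed in the same way. The windows covered every position of the arms, also stretches poor in genes or hard to map. Whether this lowered the window share, above all far from start sites, was not tested. Within 500 bp of a start site, 6 of 33 tRNA genes (18.2%) had an optimal summit, against 14.2% of windows. Over 500 and up to 2000 bp there were 9 of 92 (9.78%, against 5.06%). Over 2000 and up to 10000 bp there were 10 of 106 (9.43%, against 3.95%), and beyond 10000 bp 4 of 59 (6.78%, against 2.21%). The Wilson interval of the tRNA share reached down to the window share within 500 bp (8.61 to 34.4%), but not in the other 3 classes, where it began at 5.23, 5.21 and 2.67%. The margins there were small, and genes of 1 cluster are not independent. All 4 optimal genes beyond 10000 bp belong to 1 of the 24 clusters in that class, so this share rests on 1 locus. In the other classes, nearest first, the optimal genes came from 5 of 24, 8 of 55 and 8 of 67 clusters.

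Among all peaks of the replicates, too, the tRNA share was above that of the windows in each class. Within 500 bp of a start site the tRNA share was 45.5% ± 6.06, against 36.1% of windows. It was 37.7% ± 6.9 over 500 and up to 2000 bp, against 18.9%, and 49.4% ± 5.53 over 2000 and up to 10000 bp, against 17.3%. Beyond 10000 bp it was 42.4% ± 6.11, against 10.3% ± 0.657 of windows (SD, n = 3 throughout). Across the classes, the mean share of tRNA genes lay between 37.7 and 49.4% with no trend, while that of windows fell from class to class. Beyond 10000 bp the 3 replicates gave 40.7, 37.3 and 49.2% of tRNA genes, each above the 9.68 to 11% of windows. These genes came from 13, 10 and 15 of the 24 clusters there.

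**Figure D4:**
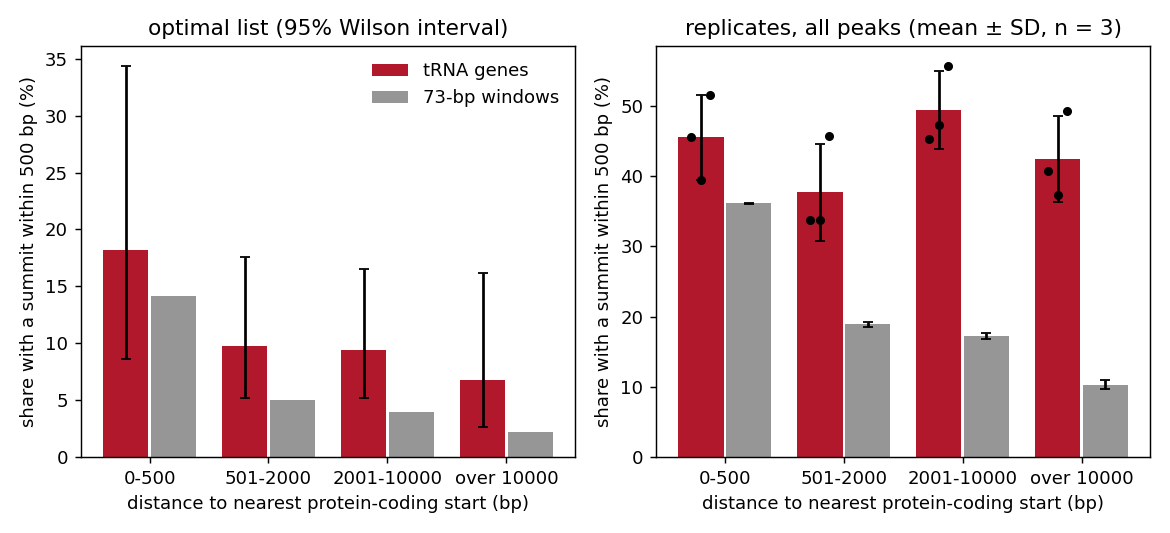
Share of tRNA genes (red) and of 73-bp windows (grey) with a summit within 500 bp, in percent, by distance to the nearest protein-coding start site in bp. Left, the optimal list with 95% Wilson intervals; right, all peaks of the replicates as mean ± SD (n = 3) with each replicate's tRNA share as a black point. Beyond 10000 bp the red bars are 6.78% and 42.4%, against 2.21% and 10.3% for the grey bars, which fall with distance.

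Measured from gene starts, however, tRNA genes were no more often near optimal summits than other genes. Within 500 bp of their start, 26 tRNA genes (8.97%) had an optimal summit, against 14.3% of all annotated genes and 15.8% of the 13945 protein-coding genes. Among other small RNA classes the share was 34.4% for snRNA genes (11 of 32) and 8.18% for snoRNA genes. With all replicate peaks, the tRNA share minus the protein-coding share was 0.379, -0.254 and 10.9 percentage points in replicates 1, 2 and 3. The mean of 3.68 ± 6.27 points was smaller than the spread between replicates (SD, n = 3; exact two-sided sign-flip permutation p = 0.5, where 3 replicates allow no less than 0.25). With the strongest peaks it was -8.97, -5.71 and -2.1 points, lower in 3 of 3 replicates (mean -5.59 ± 3.44; exact permutation p = 0.25). The difference depended on the distance allowed: with all peaks it was -6.02 points within 200 bp of the start (exact permutation p = 0.5, n = 3) and 16.6 points within 1000 bp (exact permutation p = 0.25, n = 3). It was 0.0624 points without replicate 3 and 0.643 points with all distinct protein-coding start sites.

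Initiator methionine, the tRNA that starts translation, had the highest share of any amino acid class. Of its 6 genes, 4 (66.7%, Wilson 30 to 90.3%) had an optimal summit, against 25 of the other 284 tRNA genes (8.8%). The 4 genes sat at 2 places. iMet-CAT-1-1 and iMet-CAT-1-2 shared a summit with Glu-TTC-1-4 on 2R, with a signal of 269 (rank 4054) and ranks 6887, 6693 and 2449 in replicates 1, 2 and 3. iMet-CAT-1-4 and iMet-CAT-1-5, in an intron of ome on 3L, shared a summit with a signal of 261 (rank 4273), at ranks 4943 and 3775 in replicates 2 and 3. Replicate 1 had no summit within 100 bp of it, and its strongest peak near the pair (rank 7159) lay at another position. Among the strongest replicate peaks, 33.3, 66.7 and 66.7% of the iMet genes were found, against 7.75, 8.8 and 13.7% of the other tRNA genes. Since 2 loci carry the count, it rests on 2 summits.

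The remaining iMet genes had only weak peaks. iMet-CAT-1-3, in an intron of hng3, was near a peak of rank 28297 in replicate 1 and of 29367 in the pooled list. iMet-CAT-2-1, in an intron of Mmp2, was near one of rank 27966 in replicate 1. The 6 elongator methionine genes, which share the anticodon CAT with iMet, had no optimal or pooled summit. The single selenocysteine gene, SeC-TCA-1-1, had a peak in replicate 1 alone (rank 24696).

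Beyond iMet the classes differed by no more than a few genes. Optimal summits were found at 2 of 8 tryptophan genes (25%), 2 of 10 tyrosine, 3 of 17 threonine, 2 of 12 glutamine, 3 of 20 glycine, 3 of 22 leucine, 1 of 8 phenylalanine and 2 of 17 alanine genes. There were 2 of 19 for glutamate, 2 of 20 for serine, 1 of 11 for isoleucine and 2 of 26 for arginine. In 9 classes there was none, the largest being lysine (19 genes), proline (17), valine (15) and aspartate (14). For lysine the Wilson interval still allowed up to 16.8%. At the isoacceptor level 18 of 45 had at least 1 gene with an optimal summit, and Ser-TGA (2 of 2), Arg-CCT (2 of 3) and Thr-CGT (2 of 3) had most of theirs, as iMet had. In each of Ser-TGA, Arg-CCT and Thr-CGT the 2 genes shared 1 summit, so each of these shares rests on 1 place.

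The pooled list ordered the classes differently. In it 8 of 10 asparagine genes and 9 of 11 isoleucine genes had a summit, although asparagine had none in the optimal list. For asparagine the replicates gave 3, 4 and 9 genes, so replicate 3 held most of them, and 1 gene was among its strongest peaks. Histidine had none of 5 and methionine none of 6 in the pooled list.

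**Figure D5:**
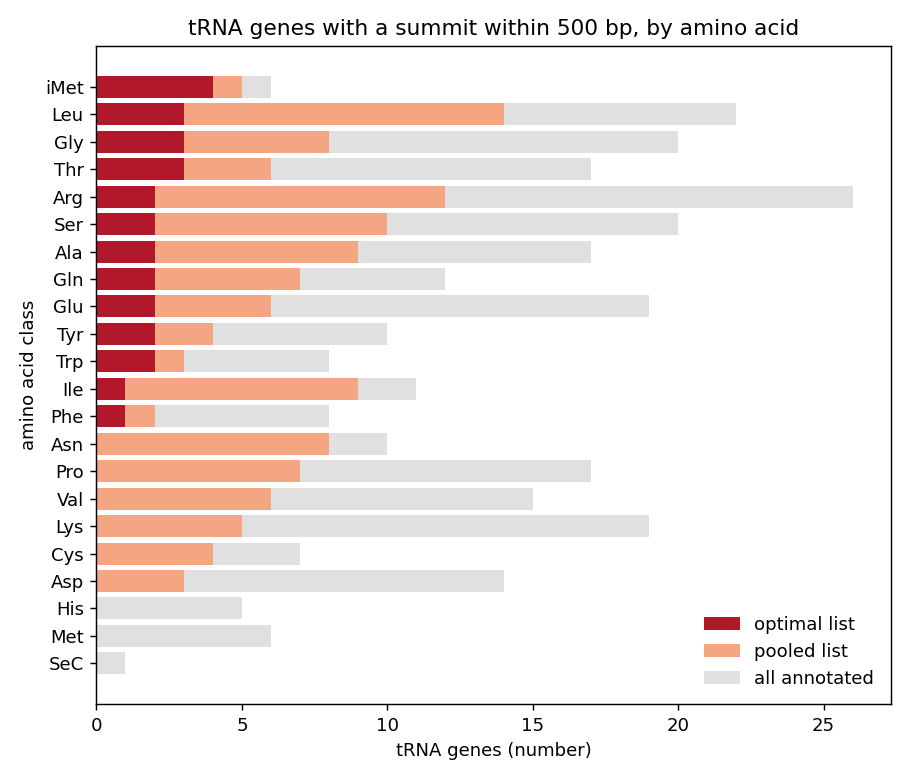
Number of tRNA genes by amino acid class: all annotated (grey), with a pooled summit within 500 bp (orange) and with an optimal summit within 500 bp (red), each bar drawn from 0 over the longer one. iMet leads with 4 of 6 genes in the optimal list; asparagine has 8 of 10 in the pooled list and none in the optimal list.

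Identical copies could lie on either side of the limit. Optimal summits lay at 23 of 238 genes with a shared sequence (9.66%) and at 6 of 52 with a unique one (11.5%, Wilson 5.4 to 23%), a difference well within the intervals. Thr-CGT-1-1 and Thr-CGT-1-2 lay 258 and 95 bp from a summit with a signal of 215 (rank 5828; 7262, 6647 and 6477 in replicates 1, 2 and 3). The identical Thr-CGT-1-3 was 631 bp away. Ala-AGC-2-8 lay 210 bp from a summit with a signal of 197 (rank 6688). Ala-AGC-1-1, which differs from it by 1 base, had its nearest optimal summit 10180 bp away. How reads that match several copies were handled is not given in the sources used here. Genes with an intron had 2 of 16, against 27 of 274 without.

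Between genomic settings the optimal share differed by small numbers of genes. Outside protein-coding genes 20 of 156 tRNA genes (12.8%, Wilson 8.45 to 19%) had an optimal summit. In introns there were 8 of 127 (6.3%, Wilson 3.23 to 11.9%) and over exons 1 of 7. The first 2 intervals overlap, and no window share for these settings stands beside them. The pooled list gave 67, 57 and 4 of the same genes, so intronic and intergenic genes stood closer together there. Arm 2R held 98 tRNA genes and 15 of the calls (15.3%, against 5.13% of its windows). The other arms had 14 of 192 (7.29%, against 4.86%). The Wilson interval of 2R (9.5 to 23.7%) lay above its window share, whereas those of 2L, 3L, 3R and X reached down to theirs. On 2L the tRNA share was not raised, at 2 of 41 (4.88%, against 4.99%). The excess in the optimal list thus came mainly from 2R. Of the 15 calls on 2R, 4 lay in 1 cluster, so these genes are not independent. Among the strongest peaks 2R, with 98 of all 290 tRNA genes, held 16 of 24, 15 of 29 and 21 of 43 of those called in replicates 1, 2 and 3. In the full lists 2R stood out less. Replicate 1 gave 39 of 98 genes on 2R and 20 of 41 on 2L. Replicate 2 gave 43 of 98 on 2R and 34 of 79 on 3R. Replicate 3 gave 60 of 98 on 2R and 27 of 48 on 3L. The pooled list gave 48 of 98 on 2R and 25 of 48 on 3L.

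Genes in clusters were near replicate summits more often than single genes. A cluster was a run of genes with at most 5000 bp between neighbours, which gave 144 clusters, 76 of them of 1 gene. Longer clusters span more positions, and no background for their span was computed. Of the 144, 19 had an optimal summit: 4 of 76 single genes (5.26%), 11 of 52 clusters of 2 to 3 genes (21.2%) and 4 of 16 of 4 or more (25%). Counted by gene, 25 of 214 in clusters (11.7%) and 4 of 76 single genes (5.26%) had one. The share of single genes was thus close to the 4.91% of all 73-bp windows. In the replicate lists single genes stood above the windows, at 28.9, 28.9 and 32.9% against 18.2, 17.7 and 17.6%. Within the clusters, the share was 14.4% of genes in those of 2 to 3 (Wilson 9.19 to 21.9%) and 8.33% in those of 4 or more (4.28 to 15.6%), and both intervals overlapped that of single genes (2.07 to 12.8%). In the replicate lists the share was 48.6% ± 7.3 for genes in clusters, against 30.3% ± 2.28 for single genes (SD, n = 3), higher in 3 of 3 replicates.

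Both of the largest clusters, of 11 genes each, had no gene near an optimal summit. One, chr3R:17617761-17631750, holds valine, proline, alanine and threonine genes and had 2 genes near a pooled summit. The other, chr2R:6161535-6171759, holds arginine, asparagine, lysine and isoleucine genes and had 5, with 5, 2 and 8 in replicates 1, 2 and 3. A 7-gene cluster of isoleucine and leucine genes, chr2R:13430282-13432794, had all 7 genes near pooled summits and none near an optimal one. A 7-gene cluster of arginine and serine genes, chrX:14014814-14017284, had 2 in the pooled list.

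The 7-gene cluster chr2R:19725620-19728958 had the most calls, with 3 optimal summits at 4 genes: iMet-CAT-1-1, iMet-CAT-1-2, Glu-TTC-1-4 and Glu-TTC-1-5. The same count of 4 was found in the pooled list, in each replicate list and among the strongest peaks of each replicate. It lies 11544 bp or more from the nearest protein-coding start site, that of CG8517. Glu-TTC-1-6, Glu-CTC-2-1 and Glu-CTC-2-2 of the same cluster had none. The leucine cluster chr3L:8060214-8068290, with 3 of its genes in an intron of Sarm, had 2 of 6 genes in the optimal list, all 6 in the pooled list, and 0, 2 and 5 among the strongest peaks of the replicates. Its optimal summit ranked 4870 and 3175 in replicates 2 and 3, and replicate 1 had no summit within 100 bp of it. Pairs with both genes called were Trp-CCA-2-2 with Gly-GCC-1-9, Arg-CCT-1-2 with Arg-CCT-1-3, Ser-TGA-1-1 with Ser-TGA-2-1, and iMet-CAT-1-4 with iMet-CAT-1-5.

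The limit of 500 bp divided genes of like strength. Just inside it were Ile-AAT-1-9 (480 bp, signal 444), Trp-CCA-2-3 (484 bp, 274) and Leu-AAG-1-3 (496 bp, 392). Just outside were Ala-AGC-2-7 (525 bp, signal 197), Leu-CAA-2-2 (570 bp, 279) and Glu-CTC-3-1 (570 bp, 558).

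Genes of the tRNA pathway are given for comparison, by summits within 500 bp of their start in the optimal list, where 14.3% of all genes had one. Of 15 annotated genes of the polymerase III machinery 5 had a summit, led by Bdp1 and Brf, which encode subunits of TFIIIB, with signals of 578 and 397, and Polr3E, a polymerase subunit, with 385. Of 20 cytosolic aminoacyl-tRNA synthetases, which charge tRNAs, 7 had one, led by TyrRS (500.4), AsnRS (398) and SerRS (367). Of 17 genes for tRNA processing and modification 1 had one (5.88%). Of 103 other genes transcribed by polymerase III, of which 96 were 5S ribosomal RNA genes, 4 had one (3.88%). They were RNaseMRP:RNA (344), snRNA:U6:96Aa (261), and snRNA:U6:96Ab and snRNA:U6:96Ac, which shared 1 summit (196, rank 6742). The 96 5S genes had none. No gene typed as ribosomal RNA (99 genes) had a summit within 500 bp of its start in any list, the pooled and full replicate lists included. The low share of that list therefore says little about the genes in it other than 5S.

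The letters of the internal promoter were also looked for around the summits, on both strands within 100 bp of each. The B box letters GTTCNANNC are in 271 of 290 tRNA genes and in 24 of the 29 with an optimal summit. They were in 5 of the 24 windows around tRNA summits (20.8%), against 6.71% of all optimal windows and 6.02% of tiled windows of the same length over the arms. The A box letters TNGCNNAG are in 140 of 290 tRNA genes and in 16 of the 29. They were in 12 of the 24 windows (50%), against 28.4 and 28.9%. Windows around these summits can include the tRNA gene itself, which carries the boxes. The word AGAGCA, part of the site described for Knirps, was in 4 of 24 (16.7%), against 14.1 and 10.1%. It was chosen with earlier results of these data known, and 4 windows are too few to set the share apart from that of all optimal windows.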

How the data were processed

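Processed peak lists of 3 biological replicates were used, each with signal values per peak that the authors had deposited. Per the notes deposited with the samples, a permissive list was called for each replicate against 1 shared control alignment, another from the pooled reads, and an optimal list from the replicate and pooled lists by an irreproducible discovery rate threshold. The peak caller, versions, threshold and scale of the signal values are not given in the sources used here. Depth is unknown, and no precipitation from embryos without the fusion was analysed here. The lists on dm6 were used and those on dm3 were not.

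Summit positions were the interval start plus the offset given in each list. Genes came from Ensembl release 115 and sequences from the RefSeq copy of dm6. Distances run from gene body to summit. Backgrounds are all 73-bp windows of the 6 arms, with no sequence masked. For a gene, signal and rank are those of its strongest summit within 500 bp. Replicates enter as 1 share each, tested by an exact sign-flip permutation. Wilson intervals (95%) cover counting error over genes only. Genes were named by rule: the 15 with the highest optimal signal, those at the limit, the clusters largest or with most calls, iMet and SeC, and the leading genes of each comparison list, of which 1 is not reported here. Others (Val-CAC-1-1, Leu-CAA-2-1, Arg-TCG-4-1, the threonine and further alanine genes, Gly-TCC-1-1 and the isoacceptors named) were chosen after their values were seen. The members and lists were chosen with earlier results of these data known. The counting was tested on simulated summits. Python 3.11.15, numpy 2.4.6, pandas 2.3.3, scipy 1.17.1 and matplotlib 3.10.9 were used.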

Additional observations from a re-analysis of the deposited data

How the results depend on the processing

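The count of 29 of 290 tRNA genes with an optimal summit was 5 within 100 bp, 11 within 200 bp and 62 (21.4%) within 1000 bp. Windows gave 1.4, 2.3 and 8.59% at these distances. The excess of the tRNA share over windows thus shrank with the distance allowed and was slight at 100 bp, where it rested on 5 genes. By the other settings, the count of 29 changed as follows. It was 19 by overlap of the deposited interval with the gene, 6 for unique sequences, 11 in the stronger part of the list, 128 in the pooled list, and 21, 18 and 16 without replicates 1, 2 and 3, when summits had to recur in the other two. The count of 26 in all lists was 3, 8 and 61 at the 3 distances, 12 by interval overlap, 5 for unique sequences and 14 with the strongest peaks, and 27 without any 1 replicate. The tRNA share minus the protein-coding share of 3.68 points reversed to -5.59 with the strongest peaks and -6.02 within 200 bp, was 16.6 within 1000 bp and 0.643 with all distinct start sites, and ran from 0.0624 (without replicate 3) to 5.64 with 1 replicate left out. By class of start distance, the shares of 18.2, 9.78, 9.43 and 6.78% were 6.06, 2.17, 3.77 and 5.08% at 200 bp and 27.3, 23.9, 21.7 and 13.6% at 1000 bp. The strongest peaks of replicate 3 gave 27.3, 16.3, 13.2 and 8.47%, and beyond 10000 bp those of replicates 1 and 2 gave 8.47 and 10.2%; over 500 and up to 2000 bp those of replicate 1 gave 5.43%. The number of amino acid classes with a summit was 13, and 4 with unique sequences. The other settings run kept counts within 1.5 times and shares within 1 SD of the values reported; the cause of the changes was not tested. No paired analysis was possible because there was no second group to pair with; the sign-flip test compares gene classes within each replicate. Limits are the unknown depth, the 3 replicates and the summits that neighbouring genes share.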
